A study of Mus musculus with 2 samples.

Results

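The muscle contractile genes examined here are 39 genes of the 14678 in the deposited table, taken by their symbols alone: actins and their filament partners, myosin subunits, proteins that anchor filaments, regulators of contraction and genes better known from striated muscle. All 39 had tags in both libraries. Whole uteri were collected from adult double transgenic mice, altered at 2 loci (VEGFtetO/tetO/beta-AKtg/wt), at gestation day 2.5, before implantation. RNA of 3 uteri was pooled for each library. The Dox+ mice were fed doxycycline and kept normal VEGF expression. The Dox- mice were littermates, bred on doxycycline food that was withdrawn when they were young. They then ate regular chow and VEGF was repressed. Both groups carried the tet operators in the VEGF promoter and the tetR-Krab repressor, which is driven by the beta-actin promoter and so is not limited to the uterus or to muscle. The Dox+ library is therefore a doxycycline-fed transgenic control, although its label calls it wild type. There was 1 library per condition, so no test between conditions could be made, and pooling leaves no measure of the spread between animals.

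The outer wall of the uterus, the myometrium, is smooth muscle. Its cells shorten when a rise in calcium activates myosin light chain kinase, which phosphorylates the regulatory light chain and lets smooth muscle myosin pull on thin filaments of actin, tropomyosin, calponin and caldesmon. The filaments end in dense bodies and membrane plaques, which correspond to the Z-discs of striated muscle, and many of the genes are driven by serum response factor (SRF), which binds a 10-base sequence called the CArG box, together with its cofactor myocardin. Smooth muscle also surrounds blood vessels, so that a tag from whole uterus cannot be assigned to the myometrium or to vessel walls.

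Digital gene expression profiling counts sequence tags per gene, and the copy number of a gene is its number of tags. Levels are given as copies and as tags per 1000000 clean tags of the library (TPM, without correction for length), with clean tags numbering 5985925 in Dox+ and 5844314 in Dox-. A fold change is the ratio of these shares. Its 95% interval is an exact Clopper-Pearson interval, computed from how the tags of the gene divide between Dox+ and Dox-, and all intervals cover counting error only. Genes with at least 200 combined copies were compared, and a gene was counted as higher or lower where the fold change reached 1.5. The methods of the study name a smaller change, on the log2 scale, and counts at that limit are given beside these. Of the members, 35 had 200 combined copies, and Synm, Ppp1r12a, Myocd and Ldb3 had fewer. The targeted gene, Vegfa, had 247 copies in Dox+ and 125 in Dox-, 1.93-fold lower in Dox- (1.55 to 2.41).

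Together the 39 genes held 102006 tags in Dox+ and 72231 in Dox-, or 17041 and 12359 TPM. Their summed share in Dox- was thus 0.725 of that in Dox+ (0.718 to 0.732). Among the 35 members compared, 12 were lower past 1.5-fold in Dox-, against 14.7% of the 6547 genes compared, and 2 were higher, against 15.2% of all genes. Of the 12, 6 were striated-type genes. Without the striated-type genes, 6 of 29 members were lower past 1.5-fold and 2 higher. At this limit the count of smooth muscle genes thus lay closer to the share of all genes. Ppp1r14a, Acta2, Csrp1, Vcl, Tpm2 and Actg2 fell just short of it, at 1.43-fold to 1.48-fold lower. The median log2 ratio of the 29 was -0.41, and 24 of them had a ratio below 1. Their counting interval lay wholly below 1 for 20 and wholly above 1 for 3. The median log2 ratio, Dox- over Dox+, was -0.51 over the 35 members and 0.035 over all genes. The ratio lay below 1 for 30 of the 35 members and for 47.9% of all genes. The counting interval lay wholly below 1 for 26 of the 35, where 31.5% of all genes did so, and wholly above 1 for 3, where 34.8% did so. More tags give a narrower interval, and the 39 members had a median of 964 copies in Dox+. These shares of intervals are not matched for tag number. Other limits gave other counts. At 2-fold, 4 of the 35 members (Hopx, Tnni2, Fhl1 and Acta1) were lower, against 5.62% of all genes, and 1 was higher, against 4.61%. At an absolute log2 ratio above 0.5, 19 were lower, against 17.8%, and 2 higher, against 18.8%. The interval lay wholly beyond 1.5-fold for 9 lower members, against 7.87% of all genes, and for 2 higher members, against 7.21%. With at least 100 combined copies 13 members were lower, against 15.6%, and 3 higher, against 16.6%. With at least 20 copies 14 were lower, against 18.7%, and 3 higher, against 19.7%, and without a minimum the same counts stood against 20.6% and 20.9%.

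In bulk tissue, fewer muscle cells and less RNA per muscle cell cannot be told apart. The members lie in the upper part of the expression range, and 25 of them had a mean of at least 100 TPM. Of these 25 members 28.0% were lower past 1.5-fold, while of the 1329 genes at that level 13.2% were.

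**Figure D1:**
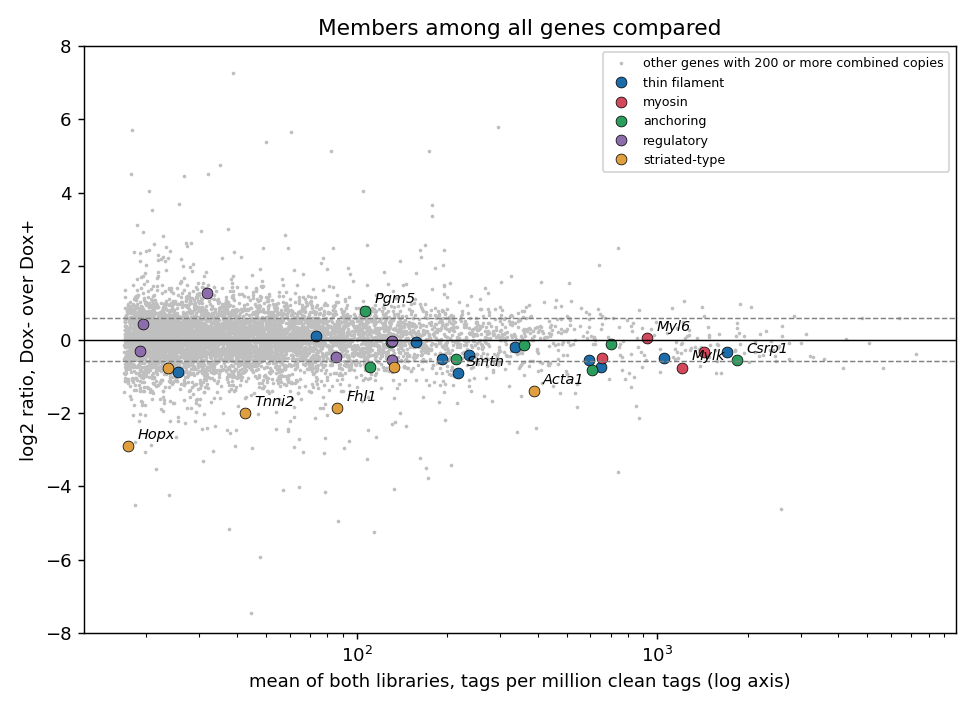
Log2 ratio of Dox- over Dox+ (vertical axis) against the mean of both libraries in TPM (horizontal log axis) for the 6547 genes compared, in grey, with the 35 members coloured by role and dashed lines at 1.5-fold. Most coloured points lie just under 0, the striated-type genes lie lowest, and 2 members, of which Pgm5 is labelled, lie above the upper dashed line.

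The roles differed in size of change. They were chosen with earlier results of these data known, so the differences between them are a description and not a test. The median log2 ratio was -1.64 for the 6 striated-type members compared, -0.51 for 11 thin filament members, -0.42 for 4 myosin members, -0.34 for 8 anchoring members and -0.17 for 6 regulatory members. By summed tags the Dox- share was 0.389 of the Dox+ share for the striated-type genes (0.371 to 0.409), and 0.728, 0.761 and 0.740 for the thin filament, myosin and anchoring genes. For the regulatory genes it was 0.889 (0.842 to 0.940). The striated-type genes held 1010 TPM in Dox+ and 393 in Dox-, and the regulatory genes 461 and 409.6. The other 4 roles together held 16031 and 11966 TPM. Counts past 1.5-fold in the roles and lists below stand beside 14.7% lower and 15.2% higher among all 6547 genes compared. In the smaller lists a count of a few genes cannot be told apart from these shares.

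**Figure D2:**
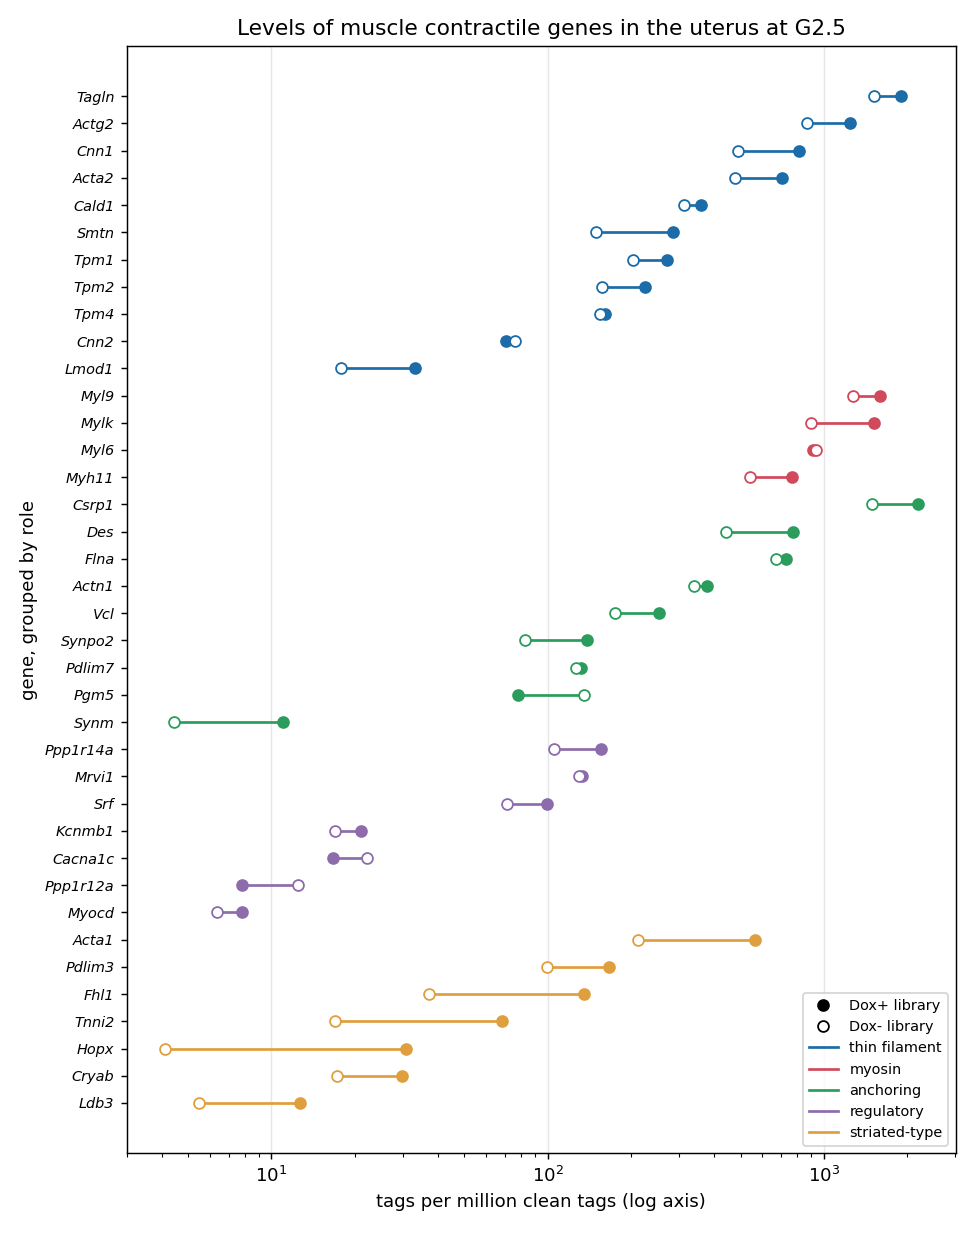
Level of 38 of the 39 genes in TPM (log axis), with filled points for the Dox+ library, open points for the Dox- library and colours for the roles. Open points lie left of the filled points for 33 of them, and the gap is widest for Hopx.

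CArG boxes were sought in promoter sequences because SRF is itself a member. The promoters, from RefSeq on GRCm38.p6, run from 250 bases before to 50 bases after a gene's start. A promoter was found for 32 of the 39 members, and none was in the table for Actg2, Tagln, Myh11, Myocd, Tnni2, Cryab and 1 regulatory member. A box of CC, 6 bases of A or T, and GG was present for 9 of the 32 (28.1%), while 1.81% of the 27025 genes with a promoter had a box. The box reads as the same pattern on both strands. By role, it was found for 4 of 5 striated-type members, 2 of 3 myosin members, 1 of 9 thin filament members, 1 of 9 anchoring members and 1 of 6 regulatory members. Many contractile genes of smooth muscle are known to be driven by SRF, so the choice of members was not independent of the box. The higher share among them is therefore a description only. The sequences below show each box in capitals with 20 bases on either side, 5′ to 3′ on the strand of the gene.
Srf, chr17:46556215-46556264, minus strand: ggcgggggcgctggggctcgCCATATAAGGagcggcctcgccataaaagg
Srf, chr17:46556195-46556244, minus strand: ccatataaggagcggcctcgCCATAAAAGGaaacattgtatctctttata
Myl9, chr2:156775283-156775332, plus strand: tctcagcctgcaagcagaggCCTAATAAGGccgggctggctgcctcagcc
Myl6, chr10:128493030-128493079, minus strand: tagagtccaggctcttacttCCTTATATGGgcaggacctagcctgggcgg
Cnn2, chr10:79988524-79988573, plus strand: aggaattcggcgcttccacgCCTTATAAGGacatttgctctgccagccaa
Vcl, chr14:20929151-20929200, plus strand: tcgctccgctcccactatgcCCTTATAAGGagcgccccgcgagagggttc
Acta1, chr8:123894819-123894868, minus strand: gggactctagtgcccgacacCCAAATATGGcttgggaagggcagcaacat
Hopx, chr5:77115177-77115226, minus strand: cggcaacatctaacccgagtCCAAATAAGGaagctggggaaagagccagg
Fhl1, chrX:56779561-56779610, plus strand: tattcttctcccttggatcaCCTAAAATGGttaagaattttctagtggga
Ldb3, chr14:34588687-34588736, minus strand: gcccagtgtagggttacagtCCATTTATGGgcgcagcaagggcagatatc
The boxes begin from 35 bases (Ldb3) to 227 bases (Vcl) before the start site, and Srf has 2 boxes, which begin 82 and 62 bases before it. A match of letters is not a shown binding site, and a promoter without a match may hold other forms of the box or a box outside this window.

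Members with and without a box had like medians. The 8 members with a box and 200 combined copies had a median log2 ratio of -0.50, with 3 lower past 1.5-fold. The 21 with a promoter but no box had a median of -0.52, with 7 lower. Of the genes other than members, 91 had a box and 200 combined copies. Their median log2 ratio was -0.056, with 14.3% lower and 14.3% higher past 1.5-fold. The range among the members with a box was wide, from -2.90 for Hopx to 0.11 for Cnn2.

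Among the thin filament genes, 3 of 11 were lower past 1.5-fold in Dox-, against 14.7% of all genes, and none was higher. The intervals of 9 lay below 1, against 31.5% of all genes, a share that is not matched for tag number. The smooth muscle actins are described first. Actg2, the gamma actin of visceral smooth muscle (NCBIM37 chromosome 6, 83462899 to 83486259), had 7436 copies in Dox+ and 5086 in Dox-, 1242 and 870.2 TPM. It was 1.43-fold lower in Dox- (1.38 to 1.48). Acta2, the alpha actin of smooth muscle (chromosome 19, 34315580 to 34329826), had 4225 and 2786 copies, 1.48-fold lower (1.41 to 1.55). Both lay just short of 1.5-fold, and Actg2 exceeded Acta2 by nearly the same factor in each library, 1.76 in Dox+ (1.69 to 1.83) and 1.83 in Dox- (1.74 to 1.91). Per kilobase of the longest coding transcript, the level of Actg2 in Dox+ was 932 TPM and that of Acta2 396. This division assumes that copies scale with transcript length, which the sources used here do not settle.

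The actins are similar in sequence, and tags that match several genes were not counted. Of the 21-base windows in the longest Acta2 transcript, 94.0% occurred in none of the other 5 actin transcripts. For Actg2 the share was 93.8% and for Acta1 87.6%, and after the stop codon no window of these genes was shared. The length of the tags is not given in the sources used here, so that these windows only approximate what could be told apart.

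Of the other thin filament genes, 3 were lower past 1.5-fold. Smtn, smoothelin, a marker of contractile smooth muscle, went from 1698 to 877 copies, 1.89-fold lower (1.74 to 2.05), the largest fold change of this role. Lmod1, leiomodin, which nucleates actin filaments in smooth muscle, had 198 and 104 copies, 1.86-fold lower, and its few tags leave a wide interval (1.46 to 2.38). Cnn1, calponin 1 (chromosome 9, 21903725 to 21914074), had 4866 copies in Dox+ and 2851 in Dox-, 1.67-fold lower (1.59 to 1.75). The counting intervals of Smtn and Lmod1 overlap, so their order is not settled by the counts.

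Tagln, transgelin, was the most abundant thin filament gene, with 11417 copies in Dox+ and 8854 in Dox-, a log2 ratio of -0.33. Tpm1 and Tpm2, the tropomyosins of muscle, had 1618 and 1352 copies in Dox+ and 1187 and 920 in Dox-, which gave log2 ratios of -0.41 and -0.52. Cald1, caldesmon, had 2145 and 1830 copies, a log2 ratio of -0.19. None of these 4 reached 1.5-fold, but all of their counting intervals lay below 1. Tpm4 and Cnn2, a tropomyosin and a calponin that are also made outside muscle, differed by less than counting error: Tpm4 had 964 and 904 copies and Cnn2 422 and 445.

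In the myosin group only Mylk was lower past 1.5-fold. Mylk, the light chain kinase that starts contraction (chromosome 16, 34745296 to 35002520), had 9121 copies in Dox+ and 5256 in Dox-, or 1524 and 899 TPM, 1.69-fold lower (1.64 to 1.75). Myh11, the heavy chain of smooth muscle myosin (chromosome 16, 14194620 to 14291501), had 4609 and 3169 copies, 1.42-fold lower (1.36 to 1.49). Myl9, the regulatory light chain that the kinase phosphorylates, had 9564 and 7452 copies, 1.25-fold lower (1.22 to 1.29). Myl6, the essential light chain, which non-muscle myosin uses too, had 5470 and 5503 copies, and its ratio of 1.03 (0.992 to 1.07) did not differ from 1 beyond counting error. The subunits and the kinase thus had unequal ratios, and the intervals of Mylk, Myh11, Myl9 and Myl6 do not overlap each other. Per kilobase, the light chains stood highest of all members in Dox+, Myl9 with 1416 and Myl6 with 1374 TPM, followed by Tagln with 1203 and Csrp1 with 1200. By copies in Dox+ the order was different, with Csrp1 ranked 1, Tagln 2, Myl9 3 and Myl6 6 among all members. Whether copies scale with transcript length is not settled, so neither order is shown to be that of transcript numbers.

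The anchoring genes included 2 lower and 1 higher past 1.5-fold among 8 compared, where 14.7% and 15.2% of all genes were. Des, desmin, the intermediate filament of muscle (chromosome 1, 75356904 to 75365154), had 4647 copies in Dox+ and 2578 in Dox-, 1.76-fold lower (1.68 to 1.85). Synpo2, an actin-bundling protein of the Z-disc, had 833 and 486 copies, 1.67-fold lower (1.49 to 1.88). Synm, synemin, a partner of desmin, had 66 and 26 copies, too few to be counted here, with a fold change of 2.48 lower (1.55 to 4.07). Csrp1, a LIM protein of smooth muscle and the member with the most copies in Dox+, had 13126 and 8743 copies, 1.47-fold lower (1.43 to 1.51). Vcl, vinculin, which joins actin to the adhesion plaque, had 1518 and 1025 copies, 1.45-fold lower (1.33 to 1.57).

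The other anchoring genes lay closer to 1 or above it. Flna, filamin A, had 4382 copies in Dox+ and 3935 in Dox-, a log2 ratio of -0.12. Actn1, an alpha-actinin that crosslinks actin, had 2267 and 1989 copies, a log2 ratio of -0.15. The PDZ and LIM domain gene Pdlim7 had 793 and 742 copies, within counting error. Pgm5, aciculin, a phosphoglucomutase relative without known enzyme activity that sits at adhesion plaques of muscle (chromosome 19, 24757506 to 24936345), went the other way. It had 469 copies in Dox+ and 792 in Dox-, 1.73-fold higher in Dox- (1.54 to 1.94). The number of Pgm5 copies per copy of Vcl was 0.309 in Dox+ (0.278 to 0.343) and 0.773 in Dox- (0.703 to 0.849).

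**Figure D3:**
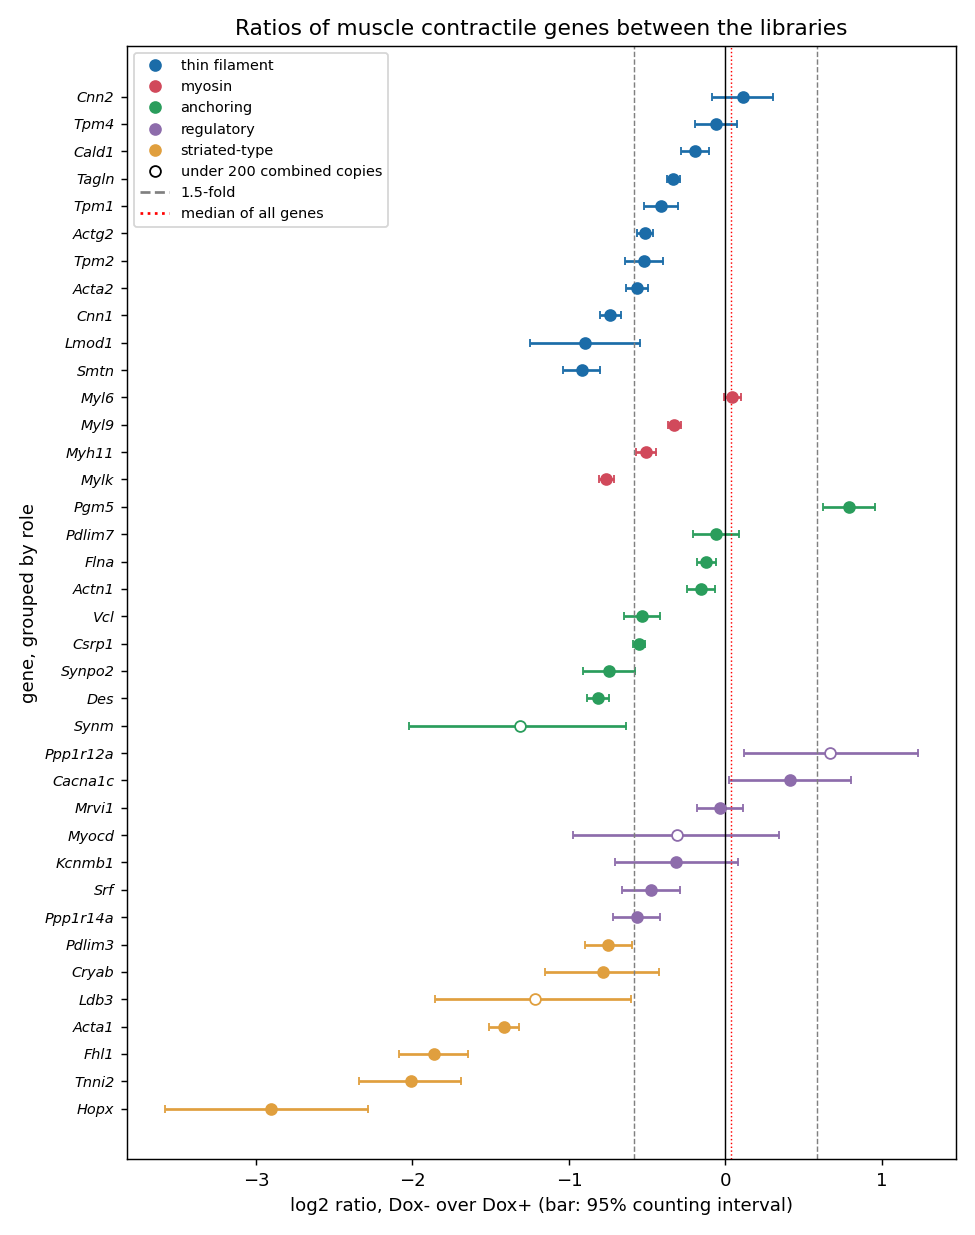
Log2 ratio of Dox- over Dox+ for 38 of the 39 genes, grouped by role, with bars for the 95% counting interval, open points for the 4 genes under 200 combined copies, dashed lines at 1.5-fold and a dotted line at the median of all genes. All 7 striated-type genes lie left of the lower dashed line, while Ppp1r12a, Cacna1c and Pgm5 have intervals above 0.

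The regulatory genes did not move as a group, with 1 of 6 higher, none lower past 1.5-fold and a median log2 ratio of -0.17 beside a mean of 0.049. Ppp1r12a, the targeting subunit of myosin phosphatase, had 47 copies in Dox+ and 73 in Dox-, under the minimum, with a ratio of 1.59 (1.09 to 2.35). Ppp1r14a, CPI-17, the inhibitor of the same phosphatase, had 935 and 616 copies, 1.48-fold lower (1.34 to 1.64). The subunit and the inhibitor of the phosphatase thus lay on opposite sides of 1. There were 9.76 Mylk copies per Ppp1r14a copy in Dox+ (9.12 to 10.4) and 8.53 in Dox- (7.85 to 9.29).

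The calcium and potassium channel subunits among the members had few tags. Cacna1c, the pore of the L-type calcium channel, had 100 copies in Dox+ and 130 in Dox-, a ratio of 1.33 (1.02 to 1.75). Kcnmb1, the beta subunit of the calcium-activated potassium channel, had 126 and 99 copies, a ratio of 0.805 (0.612 to 1.06). Mrvi1, a substrate of cGMP-dependent kinase at calcium stores, had 796 and 759 copies, within counting error. At this depth a difference of this size could not be separated from counting error for Kcnmb1.

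Of the transcriptional regulators, Srf had 595 copies in Dox+ and 418 in Dox-, 1.39-fold lower (1.22 to 1.58), short of 1.5-fold. Myocd, the muscle cofactor of SRF, had 47 and 37 copies, under the minimum, and its ratio of 0.806 (0.510 to 1.27) spans 1.

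All 6 striated-type genes with enough copies were lower past 1.5-fold in Dox-, and so was Ldb3, which had too few to be counted. Hopx, a homeodomain-only cofactor that binds SRF and restrains it in the heart (chromosome 5, 77515468 to 77544186), had 184 copies in Dox+ and 24 in Dox-, or 30.7 and 4.11 TPM. It was 7.49-fold lower in Dox- (4.88 to 12), the largest fold change of any member. Tnni2, troponin I of fast skeletal fibers (chromosome 7, 149627713 to 149630315), had 408 and 99 copies, 4.02-fold lower (3.22 to 5.06). Fhl1, a LIM-only protein of muscle, had 811 and 218 copies, 3.63-fold lower (3.12 to 4.24), and Acta1, the skeletal muscle actin (chromosome 8, 126415669 to 126418651), 3385 and 1241 copies, 2.66-fold lower (2.49 to 2.84). Pdlim3, an alpha-actinin partner at the Z-disc, had 1001 and 582 copies, 1.68-fold lower (1.51 to 1.86). Cryab, the small heat shock protein alpha B-crystallin, had 178 and 101 copies, 1.72-fold lower (1.34 to 2.22). Ldb3, a Z-disc protein, had 76 and 32 copies, 2.32-fold lower (1.52 to 3.62). Hopx and Cryab are also among the genes that the study itself lists from these libraries, and Fhl1 is listed for its antisense tags. The study also ties its down-regulated genes as a set to muscle development. All member values here come from the same libraries, so none of them is an independent observation. The striated-type role was set with earlier results of these data known.

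Acta1 also changed its share among the muscle actins. In Dox+ it held 22.5% of the tags of the muscle actins Acta2, Actg2 and Acta1 (21.8 to 23.2), and in Dox- 13.6% (12.9 to 14.3). Actg2 held 49.4% and 55.8%, and Acta2 28.1% and 30.6%. The ratio of Acta1 to Acta2 copies was 0.801 in Dox+ (0.766 to 0.838) and 0.445 in Dox- (0.416 to 0.476), a comparison within each library that does not depend on the library totals. Tnni2 copies per Acta1 copy were 0.121 in Dox+ (0.108 to 0.134) and 0.0798 in Dox- (0.0643 to 0.0980).

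Other genes of skeletal muscle fibers, the cells that Acta1 and Tnni2 are best known from, had few tags. Of 38 such markers, 25 were in the table, and together they held 101 TPM in Dox+ and 56.1 in Dox-, a ratio of 0.557 (0.486 to 0.638). Tnnc1, Atp2a1, Mb and Xirp1 were at 0 in Dox+, and Tnnc2 and Tnni1 at 0 in Dox-. Myom1, Pygm, Tnnt1 and Eno3 had the most copies of the list, with 115, 116, 51 and 67 in Dox+ and 90, 52, 45 and 29 in Dox-. Ckm, muscle creatine kinase, had 33 and 13 copies, and Tnnt3, a troponin T of fast fibers like Tnni2, 50 and 12. The summed level of the list lay on the same side of 1 as Acta1 and Tnni2, and its part in their values was not tested. Of 11 cardiac markers 5 were in the table, with 22.1 and 28.4 TPM in all, led by Myl4 with 28 and 137 copies, Tnnt2 with 69 and 15 and Tnni3 with 17 and 6.

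Some smooth muscle isoforms were next set beside relatives that other cells express, in the same library, so that the library totals drop out. Tagln copies per copy of Tagln2, the transgelin of many cell types, were 4.76 in Dox+ (4.55 to 4.97) and 2.94 in Dox- (2.82 to 3.07). Myh11 per copy of Myh9, a non-muscle heavy chain, was 13.8 (12.3 to 15.5) and 6.73 (6.11 to 7.43). Cnn1 per copy of Cnn2 was 11.5 (10.4 to 12.8) and 6.41 (5.80 to 7.10), and Tpm2 per copy of Tpm4 1.40 (1.29 to 1.52) and 1.02 (0.927 to 1.12). Acta2 per copy of Actb, the cytoplasmic beta actin, was 0.522 (0.503 to 0.542) and 0.452 (0.432 to 0.473). In each of these pairs, which were chosen with earlier results known, the muscle isoform made up less of the pair in the Dox- library. Among 4 myosin heavy chains together, Myh11 held 75.3% of the tags in Dox+ and 65.9% in Dox-. Beside Myl12b, however, Myl9 held 94.4% of the tags of the 2 genes in Dox+ (93.9 to 94.8) and 93.9% in Dox- (93.3 to 94.4), and these intervals overlap.

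The calponins also showed that a lower share of the muscle isoform did not hold beside every relative. Cnn3, the acidic calponin, had 3427 copies in Dox+ and 1474 in Dox-, 2.27-fold lower (2.13 to 2.41), a larger fold change than that of Cnn1. Cnn3 thus went from 39.3% of the calponin tags in Dox+ to 30.9% in Dox-, while Cnn1 was at 55.8% and 59.8%. Among tropomyosins Tpm3 held 10.5% in Dox+ and 21.5% in Dox-. Over the 11 non-muscle actomyosin genes the median log2 ratio was 0.23, with 3 higher and 1 lower past 1.5-fold. The genes of that list with the most copies were Actg1, with 8580 copies in Dox+ and 7287 in Dox-, Actb, with 8095 and 6167, and Tagln2, with 2400 and 3009.

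Of 28 genes of the signaling upstream of contraction 19 were compared, and 3 were higher and 2 lower past 1.5-fold, against 15.2% and 14.7% of all genes. Their median log2 ratio was 0.10. Calm2, which encodes a calcium sensor, and Rhoa, which encodes a small GTPase, had log2 ratios of 0.36 and 0.28. Rgs2, which damps Gq signaling, had 1462 copies in Dox+ and 281 in Dox-, 5.08-fold lower in Dox- (4.47 to 5.79). Pde5a, the cGMP phosphodiesterase of smooth muscle, had 225 and 66 copies, 3.33-fold lower (2.52 to 4.45).

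Calcium and potassium handling genes had a median of -0.23 over 10 genes, with 3 lower and none higher past 1.5-fold. Atp2a2, the calcium pump of the sarcoplasmic reticulum, had 1041 and 1093 copies, within counting error, as had Cacnb3, a calcium channel beta subunit, with 501 and 488. Slc8a1, the sodium-calcium exchanger, had 503 and 314 copies, 1.56-fold lower (1.36 to 1.81). Ano1, a calcium-activated chloride channel, had 597 and 108 copies, 5.40-fold lower (4.39 to 6.69). Of 13 cofactors and relatives of SRF signaling only 3 had enough copies. Tead1 had 570 and 504 copies, Mef2c 194 and 108, and Klf4, a factor known to oppose the contractile program of smooth muscle cells, 86 and 279, 3.32-fold higher in Dox- (2.60 to 4.28).

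Of 46 adhesion, caveolar, small heat shock and dystrophin-complex genes 37 were compared, and 15 were lower and 1 higher past 1.5-fold, with a median log2 ratio of -0.35. Over all 80 genes compared in the 5 pathway lists, 22 were lower and 8 higher, with a median of -0.12. Tln1, talin 1, which binds vinculin, had 3093 copies in Dox+ and 1675 in Dox-, 1.80-fold lower (1.70 to 1.91), while its partner Itgb1 had 1863 and 1992. Zyx, zyxin, was 2.06-fold lower, Pdlim1 2.36-fold lower, Lims2 3.12-fold lower, Jph2, which holds the calcium store to the membrane, 2.41-fold lower and Popdc2 2.08-fold lower. Ptrf, the caveolar coat protein cavin 1, had 2178 and 1317 copies, 1.61-fold lower. Of small heat shock proteins, relatives of Cryab, Hspb1 had 2083 and 772 copies, 2.63-fold lower (2.42 to 2.86), and Hspb6 256 and 69, 3.62-fold lower (2.77 to 4.80). Utrn, utrophin, was the only gene of this list higher past 1.5-fold, with 136 and 296 copies.

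Markers of other cell types differed as well, and their part in the values of the members was not tested. The 8 pericyte markers held 203 TPM in Dox+ and 129 in Dox-, and 2 of 4 compared were lower past 1.5-fold. Cspg4, Kcnj8 and Rgs5 were 2.63-fold, 1.83-fold and 1.47-fold lower. The 12 endothelial markers held 314 and 207 TPM, with 4 of 6 compared lower past 1.5-fold. Cdh5, vascular endothelial cadherin, and Egfl7 were 2.02-fold and 1.78-fold lower, while Pecam1 had 243 and 253 copies. Summed, both lists were lower in Dox-, as the members were, with ratios of 0.634 and 0.658, although Pecam1 and Kdr had ratios above 1.

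The 14 epithelial markers held 1354 TPM in Dox+ and 2003 in Dox-, and 6 were higher and 2 lower past 1.5-fold among 13 compared. Krt19, Cldn7 and Krt8, those with the most copies, had ratios of 1.35, 2.64 and 1.14. Elf3, Krt7 and Muc1 had ratios of 6.00, 3.43 and 2.56, whereas the claudins Cldn3 and Cldn4 were 2.93-fold and 2.24-fold lower. The 14 stromal markers held 10100 and 11971 TPM, with 2 higher and 4 lower past 1.5-fold among 12 compared. Of the collagens, Col1a1 had 23017 and 33696 copies, Col3a1 18514 and 17098, and Col1a2 4793 and 9627, 2.06-fold higher. Hoxa10, Hoxa11 and Hand2, transcription factors of the endometrial stroma, were 2.87-fold, 3.20-fold and 6.73-fold lower.

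**Figure D4:**
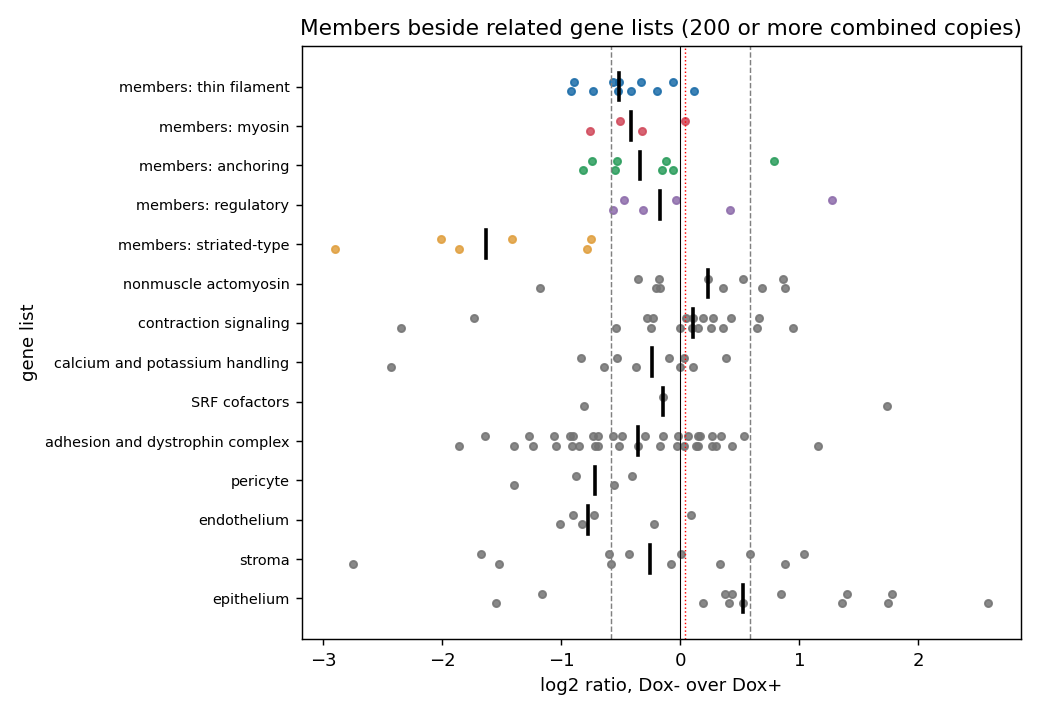
Log2 ratio of Dox- over Dox+ of each gene with 200 or more combined copies, in rows for the 5 roles of members, 5 related pathway lists and 4 cell type marker lists, with black bars for medians, dashed lines at 1.5-fold and a dotted line at the median of all genes. Medians lie above 0 for the non-muscle actomyosin, contraction signaling and epithelial lists, and below 0 for all other rows, the stromal markers among them.

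The annotation in the table was used to see what else the members have in common. The term actin filament bundle was attached to 11 of the 39 members and to 0.286% of all genes in the table. I band, the part of a sarcomere around the Z-disc, was attached to 8 members, of which Actn1, Cacna1c, Des, Pgm5 and Tpm1 are not among the striated-type genes here. Exons of 7 members, Tagln, Tpm4, Smtn, Des, Vcl, Mrvi1 and Hopx, overlap a gene on the opposite strand on NCBIM37. The study collected sense and antisense tags, and whether the copies used here hold sense tags alone is not given in the sources used here.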

How the data were processed

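Total RNA of 3 pooled uteri per condition was profiled by digital gene expression with 1 library each for Dox+ and Dox-. Adaptor-only, low quality and single-copy tags were removed by the authors, who aligned clean tags to mouse mRNAs of mm9 and deposited counts of unambiguous tags per gene, without normalization. The submitters' processing notes name CASAVA, and the aligner and enzyme are not given in the sources used here. Deposited TPM values are copies per 1000000 clean tags without length correction, with 0.01 at 0 copies. The labels describe mRNA fragmentation, whereas the paper describes tag profiling, and levels between genes are therefore also given per kilobase. The deposited ratios, P-values and FDR of the authors were not used.

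The clean tag totals were computed as the whole numbers that satisfy every pair of deposited count and TPM, and served as library sizes. Copies of 3 or fewer were set to 3 for ratios. With 1 library per condition, edgeR and DESeq2 could not be fitted, and no P-value was computed. The roles, lists, pairs and the rule for naming genes were chosen with earlier results of these data known. The rule named all members, Vegfa and, in each other list, the 3 genes with the most combined copies and genes past 2-fold with 200 combined copies. Some items that the rule names, 1 member among them, are counted in the lists but not reported here. Further genes of the lists (paralogs of members and some skeletal fiber markers) were named with their values known. Intervals and ratios were checked on simulated counts that held counting error only. Such counts cannot show how the intervals hold under variation between animals, pools or library preparations. Alternatives were other library sizes (TMM of edgeR 4.0.16, median ratio, sum of copies), minimums, folds, a pseudocount of 1, TPM, the mean and other roles. Gene coordinates and transcript lengths come from GENCODE on NCBIM37, which is mm9. Python 3.11.15, numpy 2.4.6, pandas 2.3.3, scipy 1.17.1, matplotlib 3.10.9 and R 4.3.3 were used.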

Additional observations from a re-analysis of the deposited data

How the results depend on the processing

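With 1 library per condition the counting intervals leave out variation between animals, pools and library preparations. All 195 values of single members under other library sizes, a pseudocount of 1 or the deposited TPM stayed inside their counting interval, and 1 member changed sign, within its interval. The library sizes were derived from the deposited TPM, so the TPM values repeat the main ones. Other library sizes shift every gene by the same small amount. These values therefore show only that scaling matters little, and not how stable the ratios are. Library size by TMM, median ratio or sum of copies gave 12 to 15 lower and 2 higher members past 1.5-fold. At 2-fold 4 members were lower and 1 higher, and at an absolute log2 ratio above 0.5, 19 were lower. The median log2 ratio of the members was -0.41 without the striated-type genes. The medians of the regulatory, striated-type and anchoring genes moved by more than 0.1, while those of the thin filament and myosin genes did not. With combined copies of at least 100, the regulatory median was -0.034 and the striated-type median -1.41. With at least 20 or no minimum, the anchoring median was -0.53 and the striated-type median -1.41. With Acta1 placed in the thin filament and Ldb3 and Pdlim3 among the anchoring genes, the anchoring median was -0.53 and the striated-type median -1.93. With Mylk among the regulatory genes their median was -0.31, and the mean over the regulatory genes was 0.049, of the opposite sign. The cause was not tested. No paired analysis was possible because there was 1 library per condition and the labels give no replicate numbers.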

Other observations

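Marker lists of cells outside the muscle wall, which the report does not describe, were also counted. The 6 mesothelial markers, genes of the outer lining of the uterus, held 82.4 TPM in Dox+ and 35.8 in Dox-, and all 6 were lower in Dox-. Wt1, the one with the most copies, had 325 and 157, 2.02-fold lower (1.67 to 2.46), and Msln and Gpm6a had 66 and 50 copies in Dox+ and 18 and 23 in Dox-. The 5 adipocyte markers in the table held 108 and 62.6 TPM, with Adipoq, adiponectin, at 157 and 78 copies, Fabp4 at 224 and 163 and Retn at 151 and 43. The 10 leukocyte markers held 123 and 155 TPM, of which Tyrobp had 211 and 158 copies, Csf1r 186 and 181 and Lyz2 127 and 169. The 4 erythroid genes in the table held 11 and 35.6 TPM, with the alpha globin Hba-a1 at 26 and 114 copies, Hba-a2 at 19 and 82 and Alas2 at 21 and 9. The 2 alpha globin genes are near-identical copies, so the split of tags between them is uncertain.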
